A study of Homo sapiens with 5 samples.

Results

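The genes of 10 inflammatory cytokines and CXC chemokines were examined in LM2 breast cancer cells for the binding of 3 transcription factors, Fra-1, MYC and E2F1. They were chosen by name from 20098 annotated protein-coding genes and comprise IL6, IL11, LIF, IL1A, IL1B, CSF2, CXCL1, CXCL2, CXCL3 and CXCL8. A peak was assigned to a gene when it lay in its promoter, defined as 2 kb upstream to 2.5 kb downstream of any annotated transcription start site (TSS), in its gene body, or within 50 kb on either side. These windows span between 101.9 and 110.6 kb per gene. LM2 is a derivative of the triple-negative line MDA-MB-231 that spreads to the lung, and the cells were crosslinked with 1% formaldehyde. The submitters' sample records describe the cells as untreated. A supplementary blot legend of the study instead ties the ChIP-Seq to LM2 cells carrying a control vector or an shRNA. One library each was immunoprecipitated with antibodies against Fra-1 (FOSL1), c-Myc and E2F1, and 1 input library served as the control for all 3. No group has a replicate and all libraries come from 1 cell line, so values describe these libraries and no test between factors was made. Peak lists hold no expression values, so neither the identity of the cells nor the activity of these genes could be checked from markers.

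IL-6, IL-11 and LIF signal through receptor complexes that share the gp130 chain and activate STAT3. IL-1α and IL-1β act through the IL-1 receptor, whose adaptor chain leads to NF-κB, GM-CSF (encoded by CSF2) drives the production of granulocytes and macrophages, and CXCL1, CXCL2, CXCL3 and CXCL8 attract neutrophils through CXCR1 and CXCR2. The promoters of several of these genes are textbook targets of NF-κB, C/EBP and AP-1. AP-1 is a dimer of Jun and Fos proteins, Fra-1 among them, and recognises the letters TGACTCA, which read TGAGTCA on the opposite strand.

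After the peak caller's filter, the Fra-1 library held 12931227 tags, the MYC library 23853621, the E2F1 library 18056168 and the input 10758036. The lists hold 17320 Fra-1, 4867 MYC and 36933 E2F1 peaks, so a gene had unequal odds of a peak across factors, and counts of genes with a peak are set beside the share over all protein-coding genes. Peaks are described by their pileup, the number of fragments covering the summit after scaling to the input, and by their fold enrichment, the ratio of that pileup to the local background in the input. Strongest and weakest refer to fold enrichment unless the pileup is named.

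Fra-1 had a peak in the promoter of 5 of the 10 genes, IL6, IL11, IL1B, CSF2 and CXCL8, against 13.2% of protein-coding genes. E2F1 had one in 9 of 10, all except LIF, against 61.3%. MYC had one in IL6 alone, 1 of 10 against 17.8%. IL6 was thereby the single member with promoter peaks of all 3 factors, 1 of 10 against 4.67%. With the gene body and 50 kb flanks included, Fra-1 peaks were found at 9 of 10 genes, all except IL1A, against 55.8%, MYC peaks at 4 of 10 (IL6, IL11, LIF and IL1A) against 39.5%, and E2F1 peaks at 10 of 10 against 83%. The windows held 33 distinct Fra-1 peaks, 9 MYC peaks and 89 E2F1 peaks. Of these, 2 Fra-1 peaks lie in the windows of both CXCL2 and CXCL3 and 3 E2F1 peaks in those of both IL1A and IL1B. Per window there were in the median 3 Fra-1 peaks (0 to 9), 0 MYC peaks (0 to 5) and 5 E2F1 peaks (2 to 26), where the medians over all protein-coding genes were 1, 0 and 3.

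Of the Fra-1 peaks, 5 lay in promoters, 1 in a gene body and 27 in flanks, and of the MYC peaks 1 lay in a promoter and 8 in flanks. E2F1 had 23 promoter peaks, 4 in gene bodies and 62 in flanks. In the whole lists, 18.2% of Fra-1, 80.3% of MYC and 60.04% of E2F1 peaks lay in a protein-coding promoter. The list shares count the promoter of any protein-coding gene. The window counts take only the promoters of the 10 genes and place those of their neighbours in flanks. A lower share in the windows therefore cannot be read as a difference from the lists. A flank can hold other genes: the nearest protein-coding TSS belonged to a member for 24 of 33 Fra-1, 3 of 9 MYC and 53 of 89 E2F1 peaks. When every list was cut to its 4867 peaks of largest −log10 q, the length of the shortest list, 0 of 10 promoters kept a Fra-1 peak, against 3.42% of protein-coding genes, 1 a MYC peak (IL6) against the same 17.8%, and 3 an E2F1 peak (IL11, CXCL2 and CXCL3) against 25.7%.

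**Figure D1:**
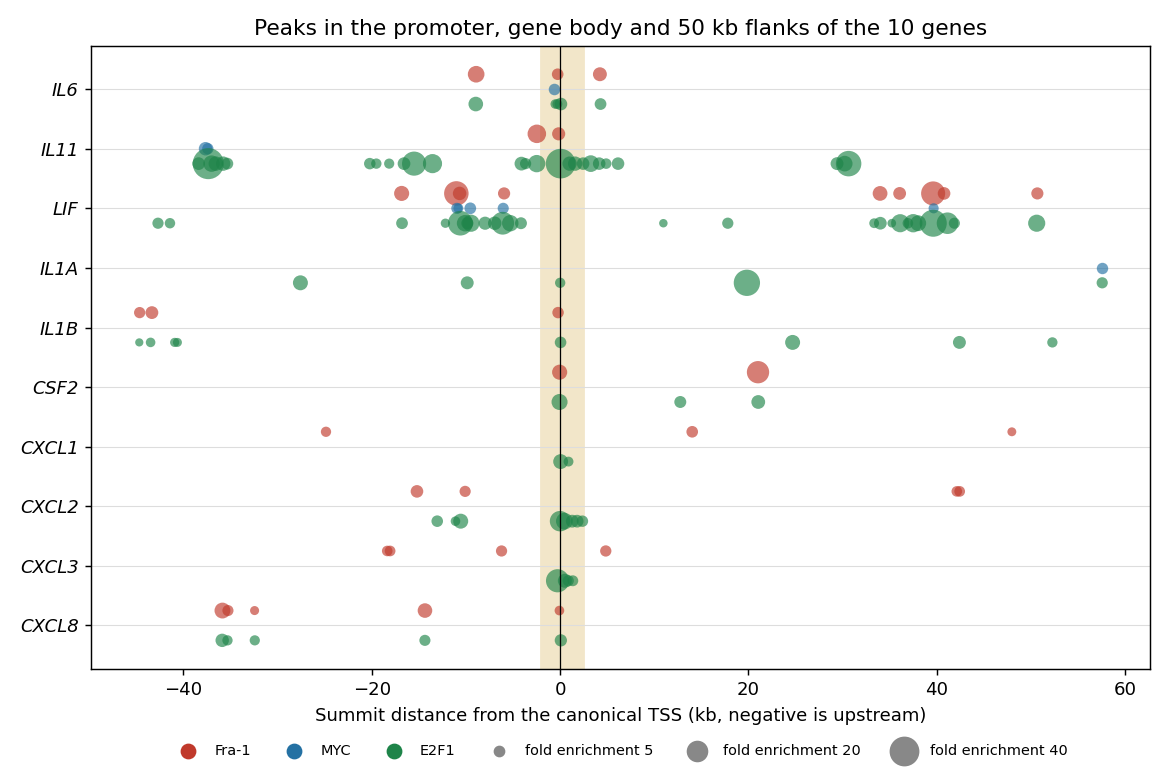
Peaks in the windows of the 10 genes. The horizontal axis gives the distance of each summit from the canonical TSS in kb in the direction of transcription, each row is a gene, colours mark the factor, the area of a point is proportional to fold enrichment, and the shaded band is the promoter of the canonical TSS; MYC points appear in 4 rows only, and LIF has none inside the band.

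IL6 lies on chromosome 7 at chr7:22765503-22771621 (hg19, plus strand). Its Fra-1 promoter peak, at chr7:22766510-22766639, had its summit 249 bp upstream of the canonical TSS with a pileup of 11 fragments and a fold enrichment of 6.89 over the local background, a percentile of 33.0 in the Fra-1 list. The MYC summit lay 629 bp upstream, with 10 fragments and a fold enrichment of 6.79, and fell in an exon of the antisense gene IL6-AS1. E2F1 had 3 promoter peaks, with summits 506 and 276 bp upstream (8 fragments each, fold enrichments 4.62 and 4.97) and 99 bp downstream (15 fragments, 8.16). The Fra-1 peak overlapped the middle E2F1 peak, the MYC peak overlapped the farthest, and Fra-1 and MYC peaks did not overlap each other, so all 3 factors marked the promoter without a stretch common to them. The sequence between 310 and 54 bp upstream is shown because it holds the Fra-1 summit and the letters of 3 motifs. Capitals mark, in order, AP-1 letters 283 bp upstream, C/EBP letters (TTGCNNAA) 155 bp upstream and NF-κB letters (GGANTTTCC) 72 bp upstream (chr7:22766509-22766765, plus strand, GRCh37).
IL6 promoter: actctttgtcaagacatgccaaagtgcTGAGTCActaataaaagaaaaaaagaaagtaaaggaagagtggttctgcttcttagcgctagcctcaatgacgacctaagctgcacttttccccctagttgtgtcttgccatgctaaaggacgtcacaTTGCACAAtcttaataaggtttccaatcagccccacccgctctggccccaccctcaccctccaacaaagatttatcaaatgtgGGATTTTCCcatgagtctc

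The AP-1 letters were centred 31 bp from the Fra-1 summit and 4 bp from the summit of the middle E2F1 peak. The strongest Fra-1 peak of the window lay 8.91 kb upstream of the TSS, in an intron of STEAP1B, with 41 fragments and a fold enrichment of 14.2, and overlapped an E2F1 peak of 10.9 (28 fragments). The remaining Fra-1 peak, 4.24 kb downstream in an exon of IL6, had a fold enrichment of 9.91 and overlapped an E2F1 peak of 7.07. The promoter peak was thus the weakest of the 3 Fra-1 peaks at IL6 on both the pileup and the fold scale.

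IL11, at chr19:55875750-55881831 on the minus strand, had the strongest E2F1 promoter peak of the 10 genes. Its summit lay 66 bp downstream of the TSS, in an exon of IL11, with 64 fragments and a fold enrichment of 44.99, rank 865 in the E2F1 list (percentile 97.7). The other 4 E2F1 promoter peaks were between 1021 and 3267 bp downstream with fold enrichments from 8.07 to 14.2, the farthest being in the promoter of a second TSS. Fra-1 had 2 peaks at IL11. The promoter peak had its summit 143 bp upstream (16 fragments, fold enrichment 8.82), and the other lay 2.46 kb upstream (34 fragments, 17.6, percentile 92.6). Both overlapped an E2F1 peak, and the distal one overlapped an E2F1 peak with a fold enrichment of 15.4. Both sequences are shown with AP-1 letters in capitals: the 200 bp before the TSS (chr19:55881832-55882031) and the 121 bp centred on the distal summit (chr19:55884232-55884352), on the minus strand.
IL11 promoter: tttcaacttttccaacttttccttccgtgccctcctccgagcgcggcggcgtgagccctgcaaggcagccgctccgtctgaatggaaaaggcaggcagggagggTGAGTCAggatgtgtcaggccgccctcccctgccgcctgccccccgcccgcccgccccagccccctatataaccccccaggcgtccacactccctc
IL11 2.46 kb upstream: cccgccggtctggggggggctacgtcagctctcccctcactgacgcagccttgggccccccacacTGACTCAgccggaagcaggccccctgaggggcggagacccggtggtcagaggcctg

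The centre of the letters was 50 bp from the promoter summit and 8 bp from the distal summit. In the promoter they begin 96 bp upstream of the TSS. The window of IL11 held 26 E2F1 peaks, a number reached by 0.483% of protein-coding genes, but the nearest TSS was that of IL11 for 7 of them. The E2F1 peak with the largest fold enrichment (49.4, 87 fragments) and both MYC peaks (6.59, and 9.29 with 17 fragments), 37.4 to 37.7 kb upstream, were nearest to UBE2S, which encodes a ubiquitin-conjugating enzyme. Peaks of 29.7 and 33.3 lay at the TSS of RPL28, a ribosomal protein gene, and of KMT5C, a histone methyltransferase gene.

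LIF, at chr22:30636442-30642748 on the minus strand, showed the reverse layout: its promoter and gene body held no peak of any factor, while its flanks held 9 Fra-1, 5 MYC and 26 E2F1 peaks. Of protein-coding genes, 1.02% had at least 9 Fra-1 peaks, 3.99% at least 5 MYC peaks and 0.483% at least 26 E2F1 peaks in their window. All 4521 stretches of 45 bp in the LIF promoters occur once in GRCh37. The study mapped reads to a masked genome whose masked bases are not given in the sources used here, so the part of masking in the lack of promoter peaks was not tested. All 4 regions in the 10 windows where peaks of all 3 factors overlapped were at LIF, of 1031 such regions in the genome. A window with at least 1 such region was found for 11.7% of protein-coding genes and one with at least 4 for 0.433%. They lie 5.99, 10.7 and 11.0 kb upstream and 39.6 kb downstream of the TSS.

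In the region 11.0 kb upstream, the Fra-1 peak had 43 fragments and a fold enrichment of 30.6, rank 138 of 17320, the E2F1 peak a fold enrichment of 31.0 and the MYC peak 6.33. In the region 39.6 kb downstream (chr22:30603044-30603197), in an exon of a noncoding gene (ENSG00000225676), the Fra-1 peak had 54 fragments and 29.5 (rank 169), the E2F1 peak 73 fragments and 37.4, and the MYC peak 9 fragments and 5.24. The region 10.7 kb upstream had 9.33 for Fra-1 and 5.01 for MYC and belongs to the same E2F1 peak as the one at 11.0 kb. The region 5.99 kb upstream (chr22:30648693-30648792) held a Fra-1 peak of 7.60, a MYC peak of 6.33 and an E2F1 peak of 26.5. The MYC peaks at 11.0 kb upstream and 39.6 kb downstream had a −log10 q (the caller's adjusted significance) of 4.36 and 3.26, where the E2F1 peaks had 68.3 and 104.0. All 4 regions were lost at a −log10 q of at least 5, because their MYC peaks lay below it. The nearest protein-coding TSS was that of LIF for the regions at 5.99 and 39.6 kb and that of OSM, the gene of the related cytokine oncostatin M, for those at 10.7 and 11.0 kb. OSM itself had a promoter peak of Fra-1 (11.6) and of E2F1 (7.05), 16.8 kb upstream of the LIF TSS.

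The 161 bp centred on the Fra-1 summit 39.6 kb downstream (chr22:30603031-30603191) are shown on the minus strand because this region holds the peak with the largest Fra-1 pileup at LIF and has peaks of all 3 factors. AP-1 letters are in capitals.
LIF 39.6 kb downstream: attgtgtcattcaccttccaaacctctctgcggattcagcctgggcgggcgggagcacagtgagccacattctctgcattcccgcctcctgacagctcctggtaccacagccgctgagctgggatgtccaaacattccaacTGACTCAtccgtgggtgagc

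This stretch holds AP-1 letters once, with their centre 64 bp from the Fra-1 summit and 11 bp from the MYC summit. No E-box (CACGTG) was found in it. Of the 5 MYC peaks at LIF, 1 had an E-box within 50 bp of its summit, the one 9.53 kb upstream (9 fragments, fold enrichment 7.02), which overlapped E2F1 and not Fra-1.

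**Figure D2:**
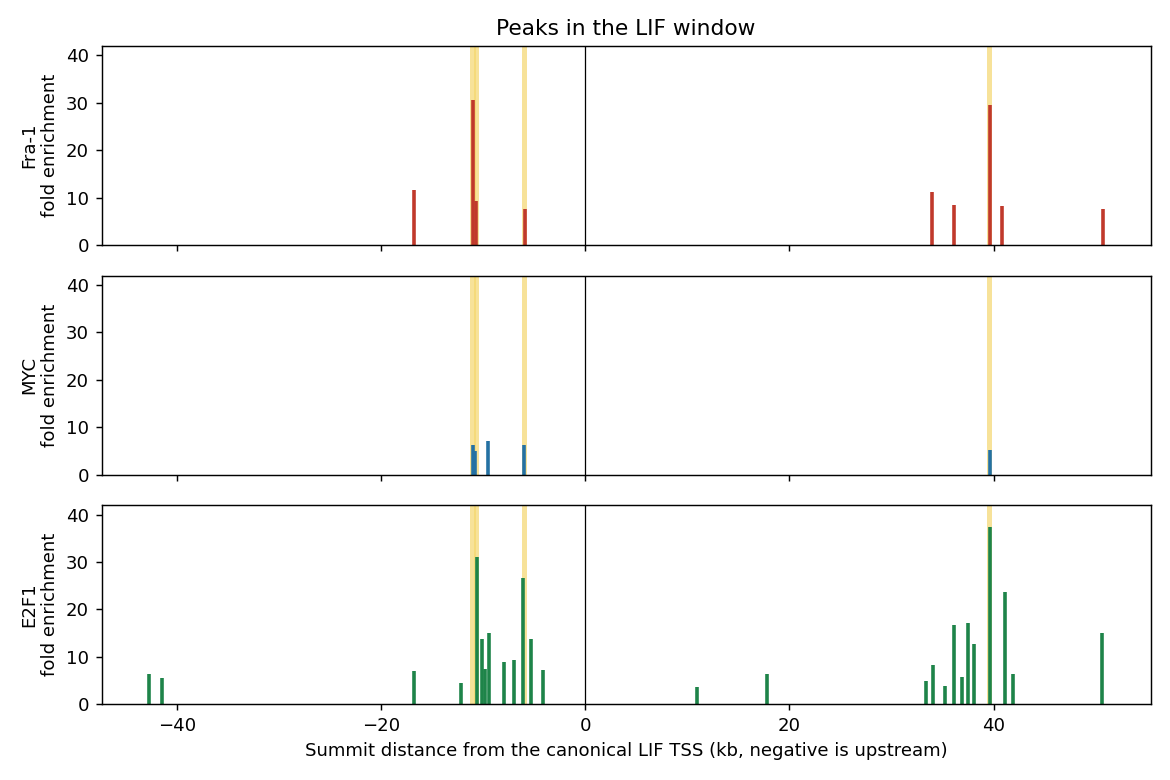
Fold enrichment of each peak in the LIF window against the distance of its summit from the canonical TSS in kb, with 1 panel per factor and the same vertical scale. Bands mark the 4 regions shared by all 3 factors (those at 10.7 and 11.0 kb touch, and the bands are drawn wider than the regions); no peak lies in the promoter, and the tallest Fra-1 peaks (30.6 and 29.5) stand in shared regions where MYC peaks reach 6.33 and 5.24.

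IL1A and IL1B lie on chromosome 2 with their canonical TSSs 52.3 kb apart (chr2:113531502-113542070 and chr2:113587328-113594393, both minus strand). IL1A was the single member without a Fra-1 peak anywhere in its window. Its promoter nevertheless holds AP-1 letters at 2 places, 12 bp upstream and 38 bp downstream of the TSS, and an E2F1 peak with the summit 18 bp downstream (14 fragments, fold enrichment 5.42, percentile 16.6). This was the weakest of the 9 genes' strongest E2F1 promoter peaks. The 60 bp before the TSS (chr2:113542071-113542130, minus strand) are shown for the AP-1 letters in capitals that lack a Fra-1 peak.
IL1A promoter: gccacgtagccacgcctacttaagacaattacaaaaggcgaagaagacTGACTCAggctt

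The largest E2F1 peak in the IL1A window (69 fragments, 35.4) lay at the TSS of CKAP2L, a mitotic spindle gene, and its MYC peak (8 fragments, 6.66) in an exon of NT5DC4. At IL1B the Fra-1 promoter summit lay 207 bp upstream with 12 fragments and a fold enrichment of 6.73 (percentile 31.0), and the E2F1 summit 59 bp downstream with 11 fragments and 6.86. These 2 peaks did not overlap, and IL1B was the single member whose Fra-1 promoter peak overlapped no other factor's peak. No AP-1 letters were found within 400 bp of this summit. The summit lies next to C/EBP letters that begin 215 bp upstream, shown in capitals in the stretch from 270 to 120 bp upstream (chr2:113594476-113594626, minus strand).
IL1B promoter: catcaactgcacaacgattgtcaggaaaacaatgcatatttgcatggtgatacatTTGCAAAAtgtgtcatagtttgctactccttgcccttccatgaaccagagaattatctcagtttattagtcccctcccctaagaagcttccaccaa

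The other 2 Fra-1 peaks of IL1B lay 43.4 and 44.7 kb upstream (15 fragments with 8.39, and 6.49), nearest to IL37, another gene of the interleukin 1 family. The strongest E2F1 peak outside its promoter (20 fragments, 11.5) lay between the IL1A and IL1B genes and was counted for both.

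CSF2, at chr5:131409482-131411863 on the plus strand, had the strongest Fra-1 promoter peak of the 10 genes. The Fra-1 summit lay 38 bp upstream of the TSS with 22 fragments and a fold enrichment of 11.7 (percentile 76.6), and the E2F1 summit 49 bp upstream with 25 fragments and 13.2. The 2 peaks overlapped. The 150 bp before the TSS (chr5:131409332-131409481) hold none of the AP-1 or NF-κB letters searched, and no AP-1 letters were found within 400 bp of the summit. Variants of these letters were not searched, so the promoter cannot be called free of such sites. A second Fra-1 peak, 21.0 kb downstream between genes, was stronger (35 fragments, 25.4, rank 330, percentile 98.1) and overlapped an E2F1 peak of 9.70 (13 fragments). It does hold AP-1 letters, centred 32 bp from the Fra-1 summit and 6 bp from the E2F1 summit. Both sequences are shown on the plus strand for this contrast, the distal one from chr5:131430456-131430576.
CSF2 promoter: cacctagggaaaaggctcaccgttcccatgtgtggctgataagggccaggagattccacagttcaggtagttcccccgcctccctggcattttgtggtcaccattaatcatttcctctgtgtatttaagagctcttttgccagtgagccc
CSF2 21.0 kb downstream: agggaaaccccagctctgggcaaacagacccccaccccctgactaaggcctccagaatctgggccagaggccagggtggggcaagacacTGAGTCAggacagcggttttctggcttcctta

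At each of the 5 genes with a Fra-1 promoter peak, IL6, IL11, IL1B, CSF2 and CXCL8, a Fra-1 peak in the gene body or flanks had both a larger pileup and a larger fold enrichment than the promoter peak. Of 1931 protein-coding genes with Fra-1 peaks in and outside the promoter, 54.7% had a peak outside it that was larger on both scales. The window of CSF2 held 3 E2F1 peaks, equal to the median of all genes, and no MYC peak.

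**Figure D3:**
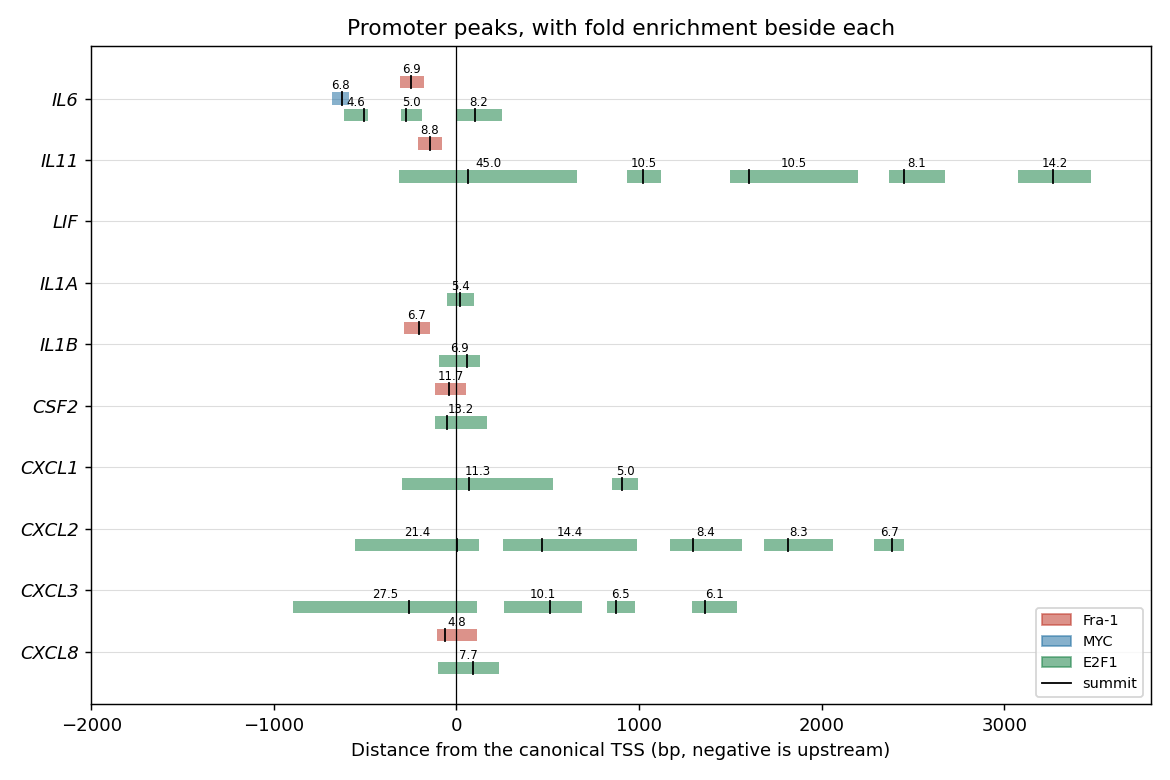
Promoter peaks of the 10 genes. Bars span each peak along the distance from the canonical TSS in bp, ticks mark summits, the number above each bar is its fold enrichment and colours mark the factor. E2F1 peaks are the longest and reach 44.99 at IL11, Fra-1 peaks run from 4.77 to 11.7, a MYC peak stands at IL6 alone, and the LIF row is empty.

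The 4 CXC chemokine genes lie in 1 cluster on chromosome 4, with CXCL8 at chr4:74606236-74609433 and CXCL1 at chr4:74735110-74737025 on the plus strand, and CXCL3 at chr4:74902306-74904524 and CXCL2 at chr4:74962757-74964913 on the minus strand. None of the 4 windows held a MYC peak. All 4 promoters had E2F1 peaks, 1 at CXCL8, 2 at CXCL1, 4 at CXCL3 and 5 at CXCL2. The strongest was at CXCL3, 260 bp upstream of the canonical TSS (60 fragments, fold enrichment 27.5), followed by CXCL2, 3 bp downstream (63 fragments, 21.4), CXCL1, 68 bp downstream (20 fragments, 11.3), and CXCL8, 88 bp downstream (47 fragments, 7.68). The weaker ones had fold enrichments of 6.69 to 14.4 at CXCL2, 6.09 to 10.1 at CXCL3 and 4.97 at CXCL1. The order depended on the scale. By fold enrichment CXCL8 was number 7 of the 9 genes with an E2F1 promoter peak, and by pileup it was number 4, since its local background of 5.25 fragments was above the 95th percentile of the E2F1 list (3.95).

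Fra-1 had a promoter peak at CXCL8 but at none of CXCL1, CXCL2 and CXCL3. At CXCL8 the summit lay 62 bp upstream with 26 fragments, the largest pileup of the 5 Fra-1 promoter peaks, and a fold enrichment of 4.77, the smallest of the 5 (percentile 7.21). It fell below the threshold when a fold enrichment of at least 5 was required. The nearest AP-1 letters were centred 72 bp from this summit and lay outside the peak. The promoters are shown from GRCh37, with AP-1 letters (in CXCL8 alone) and NF-κB letters in capitals: CXCL8 from 180 to 51 bp upstream (chr4:74606106-74606235, plus strand), and the 30 bp from 90 to 61 bp upstream of CXCL1 (chr4:74735020-74735049, plus strand), CXCL2 (chr4:74964973-74965002, minus strand) and CXCL3 (chr4:74904467-74904496, minus strand).
CXCL8 promoter: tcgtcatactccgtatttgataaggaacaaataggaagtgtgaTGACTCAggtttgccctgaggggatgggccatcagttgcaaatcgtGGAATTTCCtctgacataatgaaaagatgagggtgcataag
CXCL1 promoter: tctggaactccgGGAATTTCCctggcccgg
CXCL2 promoter: atctggagctccgGGAATTTCCctggcccg
CXCL3 promoter: tctggagctccgGGAATTTCCctggcccgg

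All 30 bp shown for CXCL3 lie upstream of its canonical TSS but inside an annotated exon of CXCL3. The NF-κB letters were GGAATTTCC in all 4 CXC genes, beginning 91 bp upstream in CXCL8, 78 bp in CXCL1 and CXCL3 and 77 bp in CXCL2. Together with IL6 they were present in 5 of the 10 promoters, searched on both strands from 250 bp upstream to 50 bp downstream of the canonical TSS, against 1.57% of 20098 promoters. AP-1 letters were present in 3 of 10 (IL11, IL1A and CXCL8) against 3.58%, and C/EBP letters in 3 of 10 (IL6, IL1B and CXCL2) against 8.11%. The E-box, the CRE letters TGACGTCA and the E2F letters (TTTCCCGC, TTTCGCGC, TTTGCCGC and TTTGGCGC) were present in none, against 8.74%, 2.69% and 4.34%. These are matches of letters, not measured sites, and variants of the letters were not searched, so a promoter without them can hold a related site. NF-κB and C/EBP were not immunoprecipitated.

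Fra-1 peaks did occur around the chemokine genes, outside the promoters. The CXCL8 window held 4 such peaks, 14.3 to 35.9 kb upstream, of which the strongest, 35.9 kb upstream, had 44 fragments and a fold enrichment of 12.9 (percentile 81.5). All 4 had AP-1 letters within 17 bp of the summit. The 121 bp centred on the strongest (chr4:74570368-74570488, plus strand) are shown because AP-1 letters occur there at 2 places, 1 of them 2 bp from the summit, followed by C/EBP letters (TTGCGCAA), all in capitals.
CXCL8 35.9 kb upstream: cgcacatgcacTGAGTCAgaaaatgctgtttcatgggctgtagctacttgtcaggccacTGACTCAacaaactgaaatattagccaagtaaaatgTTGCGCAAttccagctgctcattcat

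The CXCL1, CXCL2 and CXCL3 windows held 9 distinct Fra-1 peaks, all in flanks, with fold enrichments from 4.05 to 8.13. The strongest were at CXCL1 14.0 kb downstream (26 fragments, 6.91), at CXCL3 4.86 kb downstream (31 fragments, 6.52) and at CXCL2 15.2 kb upstream (21 fragments, 8.13), the last in an intron of MTHFD2L 217 bp from one of its start sites. The strongest E2F1 peak in the flanks of CXCL2 lay 10.5 kb upstream (48 fragments, 11.5), and that of CXCL8 35.9 kb upstream (35 fragments, 9.19). CXCL1 and CXCL3 had none in their flanks. Of the Fra-1 peaks, 1 of 9 overlapped an E2F1 peak in the CXCL1, CXCL2 and CXCL3 windows, 5 of 5 in the CXCL8 window and 18 of 19 in the windows of the other 6 genes, where the whole Fra-1 list had 61.5%. AP-1 letters inside the peak were found at 7 of 9, 4 of 5 and 11 of 19, against 60.7% of the list. Differences between these loci were not tested.

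The local background was higher around the chemokine genes. Computed back from each pileup and its fold enrichment, it had a median of 3.58 fragments (1.71 to 7.91) over the 14 Fra-1 peaks in the 4 chemokine windows, 0.933 (0.315 to 2.92) over the 19 of the other genes and 1.89 over the whole list. The median over all Fra-1 peaks on chromosome 4 was 1.97. For E2F1 the medians were 1.99 fragments (0.811 to 5.25) over 19 chemokine peaks, 0.924 (0.352 to 4.81) over 70 others and 0.996 over the list. The E2F1 peaks at CXCL1 lay below the list's median, at 0.856 and 0.811. The Fra-1 pileups were 26 fragments in the median at the chemokine genes and 22 at the others, in the opposite order to the fold enrichments, 6.35 and 9.33. Because fold enrichment is the ratio of pileup to background, lower fold enrichments at these pileups imply a larger background by arithmetic. The source of the larger background was not tested. In the promoters of CXCL1, CXCL2 and CXCL3, 2.89%, 4.86% and 3.18% of the 45 bp stretches occur more than once in GRCh37. The shares were 0% at CXCL8, 8.93% at IL11 and at most 4.06% at the remaining genes. Where the copies lie was not recorded. The part of these copies in the peak values at IL11, CXCL1, CXCL2 and CXCL3 was not tested.

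**Figure D4:**
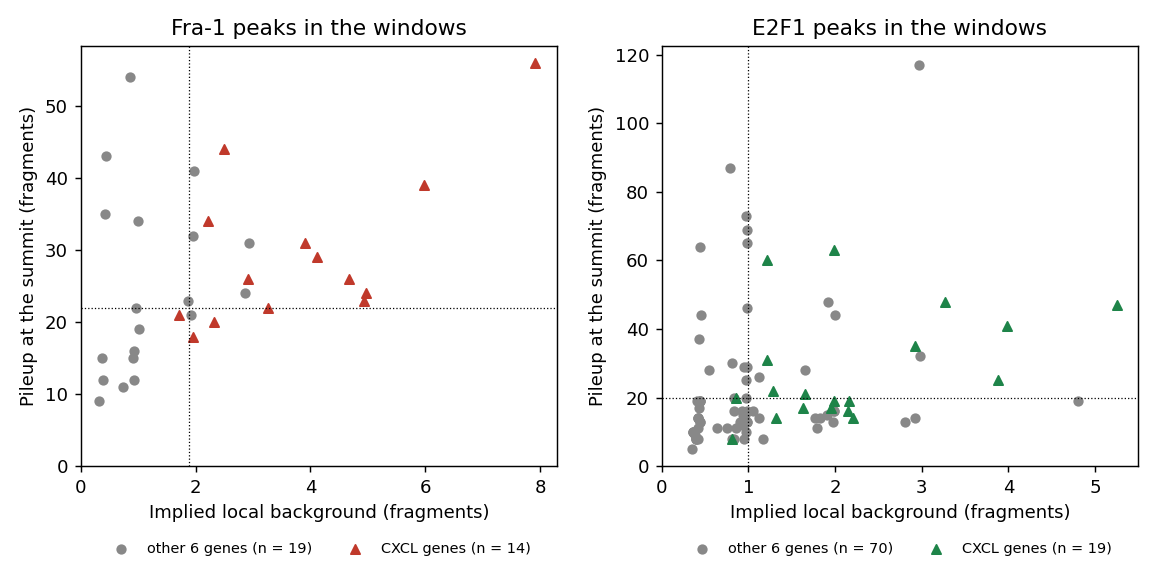
Pileup at the summit against the implied local background, both in fragments, for Fra-1 (left) and E2F1 (right) peaks in the 10 windows. Triangles are peaks of the 4 chemokine windows, circles those of the other 6 genes, and dotted lines the medians of the whole list; the Fra-1 triangles lie mostly to the right of the list's median background of 1.89 at pileups similar to those of the circles.

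Across the 10 windows, 24 of 33 Fra-1 peaks overlapped an E2F1 peak by at least 1 bp (72.7%, 95% Wilson interval 55.8 to 84.9), against 61.5% of the whole Fra-1 list. In the other direction, 23 of 89 E2F1 peaks overlapped a Fra-1 peak (25.8%, 17.9 to 35.8), against 28.3%. All 9 MYC peaks overlapped an E2F1 peak (100%, 70.1 to 100), against 96.1% of the MYC list, and 4 of 9 overlapped a Fra-1 peak (44.4%, 18.9 to 73.3), against 21.4%. The 4 are the LIF regions. Each share of the whole list lay within the interval of the windows, so no difference from the lists was detectable at these numbers of peaks. With lists of 4867 peaks each, the share of Fra-1 peaks overlapping E2F1 was 22.2% of 9, against 4.81% of the list, and that of MYC peaks 55.6% of 9, against 51.6%. The intervals cover counting error only, and neighbouring peaks are not independent.

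The median fold enrichment of the Fra-1 peaks was 8.13 in the windows and 8.24 in the list. MYC peaks had 6.59 in the windows and 6.67 in the list, and E2F1 peaks 8.28 and 8.88. The 5 Fra-1 promoter peaks had a median of 6.89 and a median percentile of 33.0. All 7 AP-1 letters lay within 50 bp of the summit at 16 of 33 Fra-1 peaks (48.5%, 32.5 to 64.8), against 53.3% of the list, and inside the peak at 22 of 33 (66.7%), against 60.7%. Of the 5 promoter peaks, that of IL6 met the 50 bp criterion, and those of IL6 and IL11 held the letters inside the peak, centred 50 bp from the summit at IL11. The E-box was near 1 of 9 MYC summits, against 16.8% of the list. The E2F letters were near 0 of 89 E2F1 summits (upper bound 4.14%), against 1.68%, a share too low for their absence at 89 summits to be read as a difference.

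Other genes of the same pathways, taken from a list of 52 and all matched, had promoter peaks of Fra-1 at 8, against 13.2% of all protein-coding genes, of MYC at 6 against 17.8%, of E2F1 at 28 against 61.3%, and of all 3 factors at 3 (STAT3, STAT5B and CLCF1) against 4.67%. These counts are close to what the shares over all genes give for a list of 52, and the counts by group are set out as a description. Among 10 receptor genes, Fra-1 had promoter peaks at 3, IL6R (fold enrichment 13.4), IL1RAP (7.74) and IL1R1 (5.88), and E2F1 at 6, led by IL6ST (23.6), which encodes gp130, IL1RAP (17.5), IL11RA (15.6) and LIFR (15.6). CXCR1, CXCR2, CSF2RA and CSF2RB had none. All 10 genes of the signalling group had an E2F1 promoter peak, where 61.3% of all genes had one, led by MYD88 (41.5), the adaptor of the IL-1 receptor, TRAF6 (40.5) and IRAK4 (31.4). Of 4 antagonists and feedback genes, SOCS3, an inhibitor of gp130 signalling, had E2F1 (26.4) and MYC (6.66) peaks, SOCS1 had an E2F1 peak (12.4), and IL1RN and IL1R2 had none. Of the 17 other cytokines and CC chemokines, 10 had E2F1, 3 Fra-1 and 2 MYC peaks. The largest E2F1 values were at CTF1 (44.6), which encodes cardiotrophin-1, another gp130 cytokine, and at IL23A (43.0). CLCF1, a cytokine that signals through gp130, had the largest Fra-1 value of this group (22.9) together with 8.48 for MYC and 40.1 for E2F1.

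Of 11 other CXC chemokine genes examined, including CXCL5, CXCL6, PPBP, PF4 and PF4V1 in the same cluster on chromosome 4, 0 had a promoter peak of any factor. All 4 CXC genes described above had an E2F1 promoter peak, and the share over protein-coding genes was 61.3%. TNF, CCL2, CCL5, CCL7, CCL20, IL33 and TSLP likewise had none. A gene without a peak fell below the peak caller's threshold at this depth, which does not show that the factor was absent. Only unique hits on a masked genome were kept, and repeated sequence was not counted at the pathway genes.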

How the data were processed

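Peak lists of 3 ChIP-Seq libraries were analysed. The study's methods state that reads were trimmed (Trimmomatic), mapped to masked hg19 (Bowtie, unique hits only) and freed of duplicates. Peaks were called library by library against 1 input, by MACS2 2.0.10.20120913 with q below 0.01. The submitters' processing notes name Trimmomatic 0.27 and Bowtie 0.12.5. The EZH2 library and the fourth TF were not analysed here, 1 sequence is not reported here, and the input entered only through the lists.

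The signal column deposited by the authors gives the summit's pileup in fragments, scaled by MACS2 from the larger library down to the smaller. The deposited fold enrichment is the ratio of pileup to local background, each plus 1. The deposited p- and q-values are −log10 values. Here the background was recovered as the pileup plus 1, divided by the fold enrichment, minus 1, and is approximate because pileups are whole numbers. Scaling and depth differ between libraries, so fold enrichments are only roughly comparable between factors.

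Coordinates are 1-based (hg19). Genes and start sites were those of GENCODE 44 mapped to GRCh37 on chromosomes 1 to 22 and X. Overlap was counted from 1 bp. Motif letters were sought on either strand, up to 50 bp from a summit. The counting code was tested on planted data (Python 3.11.15, pandas 2.3.3, numpy 2.4.6, scipy 1.17.1, matplotlib 3.10.9). The genes, the pathway list and the motifs were chosen with earlier results of these data known. Every promoter peak of a member is given by its value or range, the strongest peak outside the promoter per member and factor by pileup and fold enrichment, and at most 4 pathway genes per group by their largest fold enrichment. Pathway genes named for a Fra-1 or MYC peak or for the lack of any peak were chosen after their values were seen.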

Additional observations from a re-analysis of the deposited data

How the results depend on the processing

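Over 16 alternatives, 86 of 112 values counted as unchanged. For most this meant within 1.5 times a count or within the interval of a share or median. For medians given as −log10 q percentiles it meant staying on the same side of the list's median. With lists of 4867 peaks, Fra-1 and E2F1 peaks both numbered 9, their promoter counts were 0 and 3, that of all 3 factors 0, E2F1 windows 5, shared regions 2, and median fold enrichments 14.2 and 33.3. Because the cut kept the peaks of largest −log10 q, the larger medians are no result about these genes. The shares fell to 22.2% for Fra-1 with E2F1 and 55.6% for MYC with E2F1, and that of E2F1 with MYC was 33.3%. At a −log10 q of at least 5, MYC peaks numbered 5, shared regions 0, the overlap of Fra-1 with MYC and of MYC with Fra-1 was 0, and that of E2F1 with MYC 3.80%. With 10 kb flanks, there were 12 Fra-1, 3 MYC and 42 E2F1 peaks, 2 genes with a MYC peak and 1 shared region. Counting a peak only for the nearest TSS left 2 genes with a MYC peak. Merging peaks within 1 kb left 39 E2F1 peaks. Requiring each pair to cover 50% of each other left 0 shared regions, an outcome fixed by the peak lengths. The E2F1 peaks at the shared LIF regions span 684 to 1122 bp. The Fra-1 and MYC peaks there span at most 290 bp, too short to cover 50% of them. Within 100 bp of the summit, AP-1 letters were at 66.7% of Fra-1 peaks. No value over all genes or the whole list was computed for 10 kb flanks, the nearest TSS, cut-list windows or 100 bp. The same holds for a −log10 q of at least 5, merged peaks and 50% cover. A change at the members under these settings cannot be told from a change everywhere. The cause of these changes was not tested. Other definitions of the promoter (1 canonical TSS, 1 kb on either side, or the summit inside) gave the same promoter counts for all 3 factors. No paired analysis was possible because each factor has 1 library. Depth limits what the lists show: weak binding below the caller's threshold is not listed.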
